A study of Mus musculus with 64 samples.

Results

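Apoptosis, the ordered self-destruction of a cell, is carried out by caspases, proteases that are held inactive until an initiator caspase is switched on. In the mitochondrial route, cytochrome c leaks from mitochondria and binds the scaffold protein Apaf1, which assembles into the apoptosome and activates caspase-9. In the death receptor route, receptors at the cell surface activate caspase-8. Inhibitors of apoptosis restrain the caspases once they are active, and mitochondrial proteins released with cytochrome c relieve that restraint or act without caspases. Postmitotic neurons of the adult brain are known for low levels of several parts of this machinery. The activation of caspases is controlled mainly on the protein, which transcript levels do not measure.

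Transcripts of 8 genes of this machinery were followed: the initiator caspases Casp8 and Casp9, the effector caspase Casp6, the apoptosome genes Apaf1 and Cycs, the mitochondrial genes Aifm1 and Diablo, and the caspase inhibitor Xiap. They were chosen by symbol, with earlier results of these data known, from the 17199 genes listed in any of 4 expression tables. All 8 were listed for prefrontal cortex, hippocampus and hypothalamus. In whole blood 7 were listed and Aifm1 was not. The question was whether their transcripts differed after chronic stress in tissues linked to stress and sleep, since the title of the series names apoptotic pathways.

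Total RNA came from male BALB/c mice aged 28 weeks. Unstressed mice were compared with mice kept for 9 weeks on UCMS (Unpredictable Chronic Mild Stress), in which mild stressors are applied in an order the animal cannot foresee, as a model of depression. Samples date from 14 to 16 hours after stress ended, at ZT12.5 to ZT14.5 (hours after lights on). Each brain region had 8 control and 8 UCMS libraries, and whole blood had 7 control and 9 UCMS libraries, 64 libraries from 17 animals. Control and UCMS mice shared strain, sex and age, no allele or drug is named in the labels, and the brain regions were dissected as whole tissue.

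The deposited values are normalized levels, read here as log2, whose distribution had been made equal between the libraries of a table, so sequencing depth is unknown and the spread between animals sets the precision. Differences are UCMS minus control on this log2 scale, tested with limma over all genes of a table after the lowest 10% by mean level were left out. The hypothalamic peptide genes Hcrt, Pmch and Avp had control means of 8.27, 9.40 and 9.09 in hypothalamus, and none of them was listed in prefrontal cortex. In hippocampus Pmch alone was listed, at 0.452 to 7.329. Of the 4 lymphocyte markers, all were listed in blood and none in prefrontal cortex or hippocampus, while hypothalamus listed Cd79a at 0.315 to 4.319 and Cd79b at 0.315 to 3.984. Hemoglobin transcripts set 9 brain libraries from 4 animals apart, 5 control and 4 UCMS, with Hbb-bs at 14.03 to 14.57 against 4.02 to 9.63 in the other 39. Prefrontal cortex UCMS replicate 5, hippocampus UCMS replicate 3, hypothalamus control replicate 1 and blood control replicate 2 had the lowest median correlation with the other libraries of their tables, 0.912, 0.918, 0.896 and 0.840. Without that library, 17 of the 31 differences between UCMS and control of the members moved by over 1.5 times and 5 turned sign or to 0. Without the hemoglobin-rich libraries, 9 of 24 brain differences moved by over 1.5 times and 4 turned sign. These values are given with each gene or among the processing alternatives.

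No member passed the threshold of an adjusted p of 0.05 in any tissue, and neither did any other gene of the 14127, 14015, 14539 and 7947 tested in prefrontal cortex, hippocampus, hypothalamus and blood (0.00% in each, limma with Benjamini-Hochberg adjustment). At an unadjusted p under 0.05, 2.18%, 2.95%, 2.12% and 10.8% of the genes tested fell below the threshold in the same order of tissues, 308, 414, 308 and 859 genes. The members tested numbered 5, 6, 5 and 7, of which 0, 0, 0 and 1 had such a p. The one was Casp9 in whole blood, and 1 of 7 members is close to the 10.8% of all genes tested there. The exact permutation test of each gene, added after the data were seen, called 0 genes at an adjusted p of 0.05 and 441, 554, 387 and 912 genes at an unadjusted one, 2.81%, 3.56%, 2.40% and 10.3% of the genes listed.

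**Figure D1:**
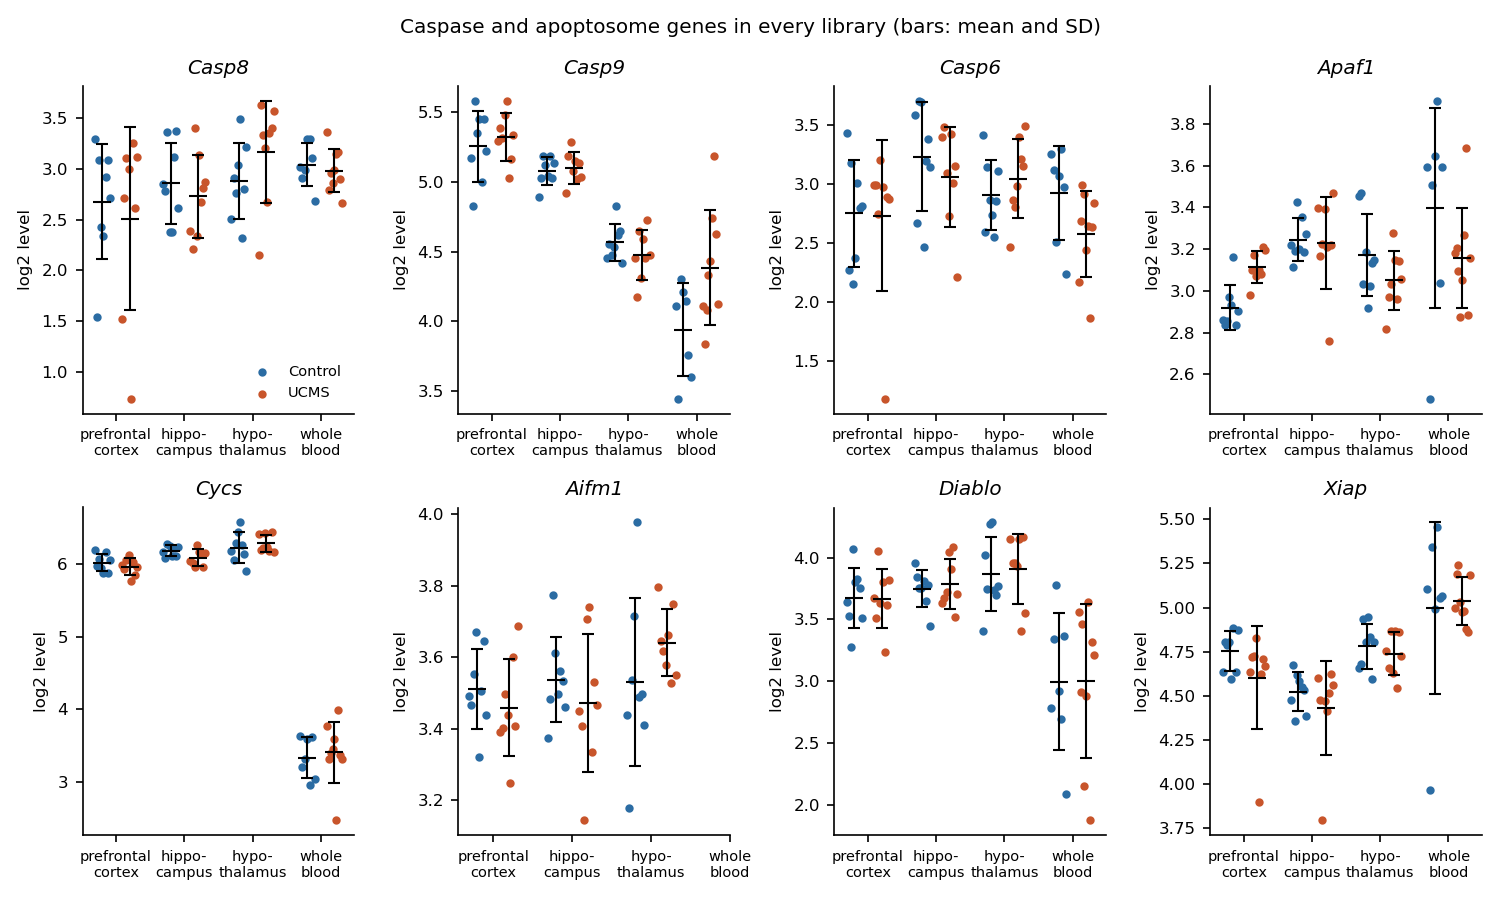
Log2 level of each gene (vertical axis, each panel with its own scale) in every library of 4 tissues, control in blue and UCMS in orange, with black bars for the mean and SD. Control and UCMS ranges overlapped for each gene in each tissue, and single low libraries stand out for Xiap at 3.896 in prefrontal cortex, 3.795 in hippocampus and 3.966 in blood.

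Members with a higher mean in UCMS were 1 of 5 tested in prefrontal cortex, 2 of 6 in hippocampus, 3 of 5 in hypothalamus and 4 of 7 in blood, where 52.0%, 50.1%, 50.5% and 48.5% of all genes tested had a higher mean. Their median log2 differences were -0.052, -0.040, 0.039 and 0.0061, against 0.0056, 0.00038, 0.00075 and -0.010 for all genes tested. Only members above the filter entered these counts. Casp8 and Casp6 were below it in all 3 brain regions, and Apaf1 in prefrontal cortex and hypothalamus. Control and UCMS ranges overlapped for each member in each tissue, as they did for all but 0.00%, 0.00%, 0.00% and 0.0252% of the genes tested.

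Casp8 (Entrez 12370, chromosome 1, 58795374 to 58847503 on GRCm38) encodes the initiator caspase of the death receptors, which also holds back necroptosis, a caspase-independent form of cell death. Its log2 level in prefrontal cortex ran from 1.54 through a median of 2.82 to 3.30 in controls and from 0.737 through 2.86 to 3.26 in UCMS. In hypothalamus controls ran from 2.32 through 2.86 to 3.49 and UCMS animals from 2.15 through 3.34 to 3.63. There 6 of 8 UCMS animals lay above the control median, and the difference was 0.29 with a 95% interval of -0.17 to 0.74 and an unadjusted p of 0.200 in limma with no filter. In hippocampus the difference was -0.13 and in prefrontal cortex -0.17, with intervals of -0.56 to 0.30 and -0.93 to 0.59. Without UCMS replicate 5, the library at 0.737, the prefrontal difference turned to 0.084. In hippocampus it was -0.23 without UCMS replicate 3 and -0.037 without the hemoglobin-rich libraries, and in hypothalamus 0.11 without the latter. Levels this low varied widely between animals, and differences of these sizes were within that spread. In blood Casp8 varied little, from 2.69 through 3.02 to 3.29 in controls and from 2.66 through 2.96 to 3.36 in UCMS, a difference of -0.060 (SE 0.14) with an adjusted p of 0.894 in limma.

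Casp9 (Entrez 12371, chromosome 4, 141793612 to 141815976) encodes the initiator caspase that the apoptosome activates. In whole blood its log2 level ran from 3.447 through a median of 4.11 to 4.303 in 7 controls and from 3.84 through 4.336 to 5.182 in 9 UCMS animals. All 7 controls lay below the UCMS median, 7 of 9 UCMS animals lay above the control median, and the ranges overlapped between 3.84 and 4.303. The mean was 3.94 ± 0.33 (SD, n = 7) in controls and 4.39 ± 0.41 (SD, n = 9) in UCMS, a difference of 0.45 (SE 0.19) or 36.2% on the linear scale, with a 95% interval of 3.91% to 78.5%. Its limma p was 0.0272 unadjusted and 0.458 adjusted over 7947 genes, and its two-sided exact permutation p was 0.0343. Leaving out each library in turn gave differences of 0.35 to 0.51, with unadjusted limma p values of 0.0123 to 0.0664, the highest without control replicate 2.

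Blood is a mixture, and fewer cells of a type cannot be told apart from less RNA per cell in such samples. Platelet markers were lower in UCMS blood in 4 of 4 genes, with a median log2 difference of -0.42 and an unadjusted limma p under 0.05 in 3 of them (0 adjusted). The mean level of the list ran from 7.57 to 8.23 in controls and from 6.48 to 7.98 in UCMS. Monocyte markers were lower in 3 of 3 genes with a median of -0.31, their list mean running from 3.01 to 4.05 and from 2.47 to 3.63. Red cell markers were higher in 4 of 4 with a median of 0.24, running from 9.47 to 10.2 and from 9.88 to 10.7. Neutrophil markers were lower in 3 of 3 genes with a median of -0.15, and lymphocyte markers in 4 of 4 with a median of -0.12, none with an unadjusted p under 0.05. Their list means ran from 5.91 to 7.09 in controls and from 5.86 to 6.62 in UCMS for neutrophils, and from 3.56 to 4.34 and from 3.35 to 4.48 for lymphocytes. With the treatment means removed, the level of Casp9 across the 16 blood libraries had a Pearson correlation of -0.53 with the platelet list, -0.43 with the neutrophil list, 0.37 with the monocyte list, 0.36 with the red cell list and -0.073 with the lymphocyte list, given as descriptions. The part of these cell types in the Casp9 difference was not tested.

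In the brain Casp9 differed little between treatments. Prefrontal cortex held levels from 4.82 through 5.29 to 5.58 in controls and from 5.03 through 5.32 to 5.58 in UCMS, and hippocampus from 4.89 through 5.08 to 5.19 and from 4.92 through 5.11 to 5.29. Hypothalamus held 4.42 through 4.54 to 4.83 and 4.17 through 4.47 to 4.73. The log2 differences were 0.067 (95% interval -0.15 to 0.29), 0.023 (-0.096 to 0.14) and -0.088 (-0.25 to 0.076), with adjusted limma p values of 0.987, 0.991 and 1.0. Without the library of lowest correlation the first became 0.030 and the second -0.0039. Tested within animals, the effect in hypothalamus minus that in blood was -0.52 (SE 0.18), with an unadjusted limma p of 0.0106 and an adjusted p of 0.629, where 7.62% of 7130 genes had an unadjusted p under 0.05. The effects in prefrontal cortex and in hippocampus minus that in blood were -0.30 (SE 0.22) and -0.38 (SE 0.21), with unadjusted limma p values of 0.193 and 0.0856. Exons of Casp9 overlap Cela2a and Ctrc on the opposite strand by 94 exon bases. Cela2a was listed in the brain tables at 4.45, 4.25 and 3.66 in prefrontal cortex, hippocampus and hypothalamus, and reads in the overlap cannot be assigned without knowing the use of strand, which is not given in the sources used here.

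Casp6 (Entrez 12368, chromosome 3, 129901425 to 129914103) encodes an effector caspase that cleaves nuclear lamin A and is known for its part in axon degeneration. In blood it ran from 2.24 through 3.07 to 3.30 in controls and from 1.87 through 2.65 to 2.996 in UCMS. None of 9 UCMS animals lay above the control median, while 2 of 7 controls lay below the UCMS median. The difference was -0.35 (SE 0.20), a linear change of -21.3% with a 95% interval of -41.4% to 5.74%, an unadjusted limma p of 0.107 and an adjusted p of 0.520. The difference ran from -0.46 without control replicate 7 to -0.26 without UCMS replicate 7. Its correlation with the platelet list across the blood libraries was 0.65, and the part of platelets in this value was not tested. In the brain regions Casp6 lay under the filter and its differences of -0.021, -0.17 and 0.14 in prefrontal cortex, hippocampus and hypothalamus had intervals that reached from -0.59 to 0.55, from -0.61 to 0.28 and from -0.20 to 0.48. The prefrontal difference turned to 0.20 without UCMS replicate 6, the hemoglobin-rich library at 1.181, and to 0.30 without both hemoglobin-rich libraries, and it was -0.056 without UCMS replicate 5. In hippocampus it was -0.046 without UCMS replicate 8 and -0.076 without the hemoglobin-rich libraries, and in hypothalamus 0.21 without control replicate 1.

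Apaf1 (Entrez 11783, chromosome 10, 90989311 to 91082770) encodes the apoptosome scaffold. In prefrontal cortex its log2 level ran from 2.835 through a median of 2.881 to 3.161 in 8 controls and from 2.98 through 3.101 to 3.209 in 8 UCMS animals. All 8 UCMS animals lay above the control median and 7 of 8 controls lay below every UCMS animal, the exception being control replicate 6 at 3.161. The means were 2.92 ± 0.11 (SD, n = 8) and 3.11 ± 0.076 (SD, n = 8), a difference of 0.19 that ran from 0.18 to 0.23 when each library was left out in turn. The gene was not in the main test, because its mean level of 3.02 lay under the filter level of 3.11.

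Several tests of that difference can be set side by side. The two-sided exact permutation p was 0.00249, adjusted 0.998 over 15697 genes, of which 17 had a smaller p. With no filter, limma gave an unadjusted p of 0.0337 with a trended prior variance and 0.00304 with a prior that was not trended, with an adjusted p of 0.995 in both. Apaf1 varied little between animals: its residual SD of 0.094 was smaller than that of all 500 genes nearest to it in mean level, with a median of 0.40. None of these adjusted p values passed.

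Elsewhere Apaf1 took other directions. In hippocampus, the only brain region where it passed the filter, controls ran from 3.11 through 3.21 to 3.43 and UCMS animals from 2.76 through 3.22 to 3.47, a difference of -0.016 (SE 0.093). It became 0.051 without UCMS replicate 6, the hemoglobin-rich library at 2.76. In hypothalamus the values were 2.92 through 3.14 to 3.47 and 2.82 through 3.04 to 3.28, a difference of -0.12 (95% interval -0.33 to 0.091 with no filter), or -0.079 without control replicate 1 and -0.065 without the hemoglobin-rich libraries. In blood they were 2.48 through 3.59 to 3.91 and 2.88 through 3.16 to 3.68, and 1 of 9 UCMS animals lay above the control median. That difference was -0.24 (SE 0.18) with an unadjusted limma p of 0.205 and an adjusted p of 0.612. It ran from -0.39 without control replicate 2 to -0.15 without control replicate 5, with unadjusted limma p values of 0.0185 and 0.418. The smallest adjusted p over the libraries left out was 0.490. The effect in prefrontal cortex minus that in hypothalamus, tested within animals with no filter, was 0.31 (SE 0.14), with an unadjusted p of 0.0341 and an adjusted p of 1.0 in limma.

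**Figure D2:**
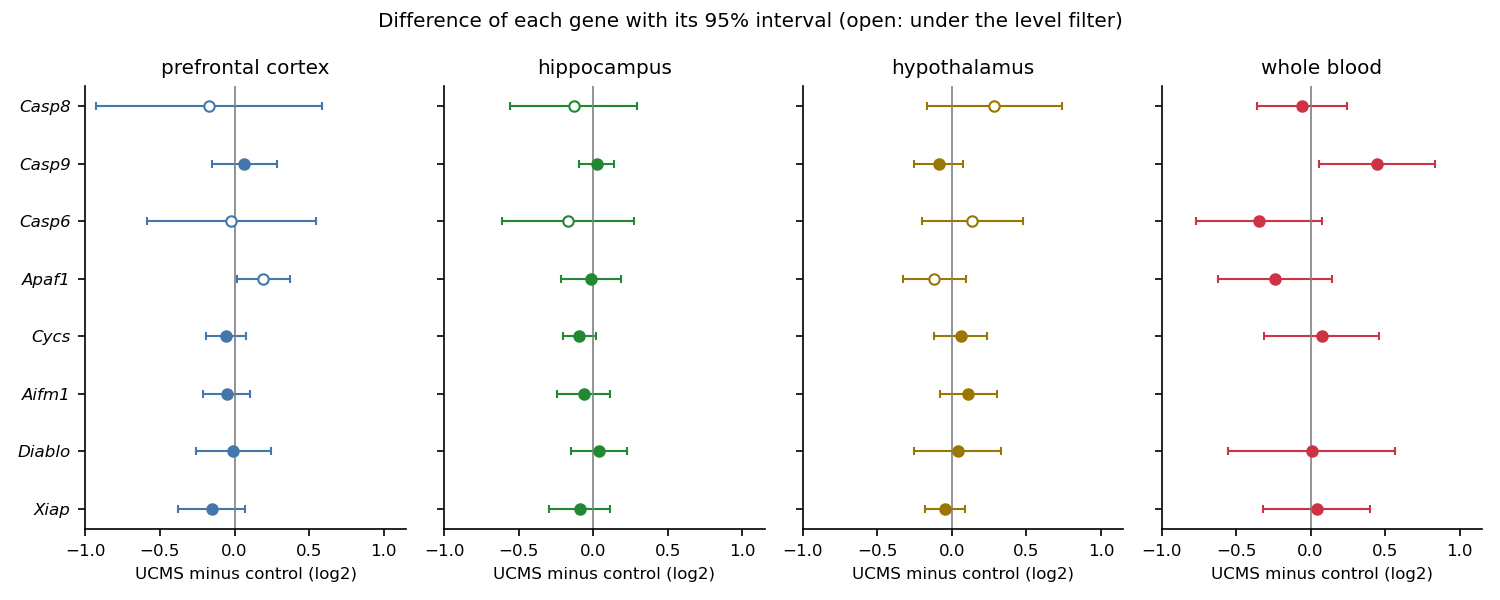
Difference between UCMS and control (horizontal axis, log2) of each gene in 4 tissues with its 95% interval from limma run with no filter, open circles for genes under the level filter of the main test. The intervals that leave out 0 are those of Casp9 in blood, at 0.45, and Apaf1 in prefrontal cortex, at 0.19, and neither passed after adjustment over all genes.

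Cycs (Entrez 13063, chromosome 6, 50562563 to 50566538) encodes somatic cytochrome c, the electron carrier of the respiratory chain that triggers the apoptosome once it reaches the cytosol. In hippocampus its log2 level ran from 6.08 through 6.20 to 6.28 in controls and from 5.96 through 6.11 to 6.27 in UCMS. There 1 of 8 UCMS animals lay above the control median and 1 of 8 controls below the UCMS median. The difference was -0.092 (SE 0.051), with a 95% interval of -0.20 to 0.016, an unadjusted limma p of 0.0905 and an adjusted p of 0.990. Prefrontal cortex, with 5.88 through 6.02 to 6.20 and 5.77 through 5.98 to 6.13, and hypothalamus, with 5.90 through 6.23 to 6.58 and 6.17 through 6.24 to 6.44, gave differences of -0.059 and 0.058, the former -0.030 without UCMS replicate 5. In blood the ranges were 2.96 through 3.31 to 3.63 and 2.47 through 3.39 to 3.99, with a difference of 0.074 (SE 0.18). That difference ran from 0.0014 without UCMS replicate 7, the highest library, to 0.19 without UCMS replicate 6, the lowest. The transcript of Cycs matches 10 other annotated genes over at least 200 bases at 90% identity or more, 9 of them processed pseudogenes. One copy, Gm13772, is 99.4% identical over 317 bases and was listed in the brain tables at 6.06, 6.22 and 6.43, so reads may have been shared between them.

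Aifm1 (Entrez 26926, chromosome X, 48474944 to 48513563) encodes a mitochondrial flavoprotein that supports assembly of the respiratory chain and, once released, moves to the nucleus in caspase-independent death. In hypothalamus it ran from 3.18 through 3.49 to 3.98 in controls and from 3.53 through 3.63 to 3.80 in UCMS. All 8 UCMS animals lay above the control median, yet control replicate 5 at 3.98 was the highest of the 16. The difference was 0.11 (SE 0.092), with a 95% interval of -0.083 to 0.31 and an adjusted limma p of 1.0. Leaving out 1 library at a time gave 0.061 without control replicate 2 to 0.18 without control replicate 5, with unadjusted limma p values of 0.480 and 0.0346. The smallest adjusted p over the libraries left out was 0.999. Differences in prefrontal cortex and hippocampus were -0.052 (SE 0.075) and -0.064 (SE 0.085), and they were -0.022 without UCMS replicate 5 and -0.018 without UCMS replicate 3.

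Diablo (Entrez 66593, chromosome 5, 123509765 to 123524176) encodes a protein, also called Smac, that leaves mitochondria and frees caspases from inhibitors of apoptosis. Its mean in controls and UCMS was 3.68 ± 0.24 and 3.67 ± 0.24 in prefrontal cortex, 3.75 ± 0.15 and 3.79 ± 0.20 in hippocampus, and 3.87 ± 0.30 and 3.91 ± 0.28 in hypothalamus (SD, n = 8 each). In blood it was 2.99 ± 0.55 (SD, n = 7) and 3.001 ± 0.62 (SD, n = 9), the widest spread of the members listed there. With the treatment means removed, Diablo in blood had a Pearson correlation of 0.66 with the platelet list and -0.70 with the red cell list. With the lymphocyte, neutrophil and monocyte lists it had 0.19, -0.13 and -0.075. The part of these cell types in its spread was not tested. The differences of Diablo lay between -0.0069 and 0.039, and the 95% interval in blood, -0.56 to 0.57, leaves room for a change of that size in either direction. Without the library of lowest correlation the difference was -0.026 in prefrontal cortex, -0.027 in hypothalamus and 0.064 in blood, and without the hemoglobin-rich libraries it was 0.051 in prefrontal cortex and 0.077 in hypothalamus. Part of Diablo shares exon bases with B3gnt4 on the opposite strand, 1326 bases, and with Gm49027 on the same strand, 1193 bases, and B3gnt4 was listed in prefrontal cortex and hypothalamus at 3.04 and 3.68.

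Xiap (Entrez 11798, chromosome X, 42059679 to 42109656) encodes a ubiquitin ligase that binds and blocks active caspases. Its log2 level in prefrontal cortex ran from 4.60 through 4.80 to 4.88 in controls and from 3.90 through 4.69 to 4.83 in UCMS. In hippocampus the values were 4.36 through 4.54 to 4.67 and 3.80 through 4.50 to 4.63, and in hypothalamus 4.60 through 4.80 to 4.95 and 4.54 through 4.74 to 4.87. The mean was lower in UCMS in each of the 3 brain regions, by differences of -0.15, -0.091 and -0.044. Over the 3 regions, averaged within each of 16 animals, the difference was -0.096 (SE 0.046), or -6.42% with a 95% interval of -12.5% to 0.0816%. Its limma p was 0.0525 unadjusted and 0.959 adjusted over 13517 genes, of which 3.62% (489 genes) had an unadjusted p under 0.05 and 0.00% an adjusted one. This mean was the smallest p of the 5 members tested, of which none was under 0.05.

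In prefrontal cortex and in hippocampus, much of the Xiap difference lay in a library that stood apart. UCMS replicate 5 in prefrontal cortex was at 3.896 with the next lowest UCMS library at 4.626, and without it the difference there was -0.052. UCMS replicate 3 in hippocampus was at 3.795 with the next lowest at 4.412, and without it the difference was 0.00. Without animals S3 and S5, from which these libraries came, the difference over the 3 regions was -0.041. In blood Xiap ran from 3.97 through 5.07 to 5.46 in controls and from 4.86 through 4.996 to 5.24 in UCMS, a difference of 0.040 (SE 0.17). It became -0.13 without control replicate 2 at 3.966, the library with the lowest median correlation in its table.

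The rank of each gene within its library is given as a description. Each table was read as normalized apart, and whether levels were corrected for length is unknown. A rank also depends on the other genes of a table. The genes listed in all 4 tables are most of the 8830 of blood. They are a smaller part of the 15697, 15573 and 16155 of prefrontal cortex, hippocampus and hypothalamus. A shift in rank between blood and brain therefore need not be a shift in level. Over the 7991 genes listed in all 4 tables, Cycs had a median percentile in controls of 80.5, 82.1 and 81.4 in prefrontal cortex, hippocampus and hypothalamus and of 42.9 in blood. Apaf1 went the other way, from 2.06, 3.63 and 2.82 in the brain regions to 54.8 in blood. Casp8 moved from 1.91, 1.51 and 1.64 to 30.6, Casp6 from 1.78, 4.40 and 1.26 to 32.8, and Xiap from 52.8, 42.0 and 49.7 to 87.0. For Cycs, Casp8, Apaf1 and Xiap the ranges of control libraries in blood and in each brain region did not overlap.

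Casp9 and Diablo also had their highest medians in blood, where their ranges overlapped those of brain regions, and Casp6 in blood overlapped hippocampus. Casp9 had a median percentile of 71.3 in blood, 60.4 in hippocampus, 66.8 in prefrontal cortex and 39.6 in hypothalamus, with hypothalamus apart from hippocampus and prefrontal cortex. Its control mean level was 3.94 in blood against 5.08 in hippocampus, 5.26 in prefrontal cortex and 4.57 in hypothalamus, where prefrontal cortex and hippocampus overlapped and the other neighbours did not. Diablo had percentiles of 11.4, 12.7 and 12.8 in the brain regions and 26.9 in blood, with overlapping ranges. In control mean levels, Cycs was 6.23 in hypothalamus, 6.19 in hippocampus and 6.03 in prefrontal cortex, which overlapped, and 3.33 in blood, which did not. Neighbours in the order of tissues overlapped for Casp8 (blood 3.04, hypothalamus 2.88, hippocampus 2.86, prefrontal cortex 2.68) and for Casp6 (hippocampus 3.23, blood 2.92, hypothalamus 2.91, prefrontal cortex 2.75). The same held for Apaf1 (3.40 in blood, 3.25 in hippocampus, 3.17 in hypothalamus, 2.92 in prefrontal cortex), Diablo (3.87 in hypothalamus, 3.75 in hippocampus, 3.68 in prefrontal cortex, 2.99 in blood) and Xiap (4.997 in blood, 4.78 in hypothalamus, 4.75 in prefrontal cortex, 4.52 in hippocampus). Aifm1 was near equal in hippocampus, hypothalamus and prefrontal cortex, at 3.54, 3.53 and 3.51.

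**Figure D3:**
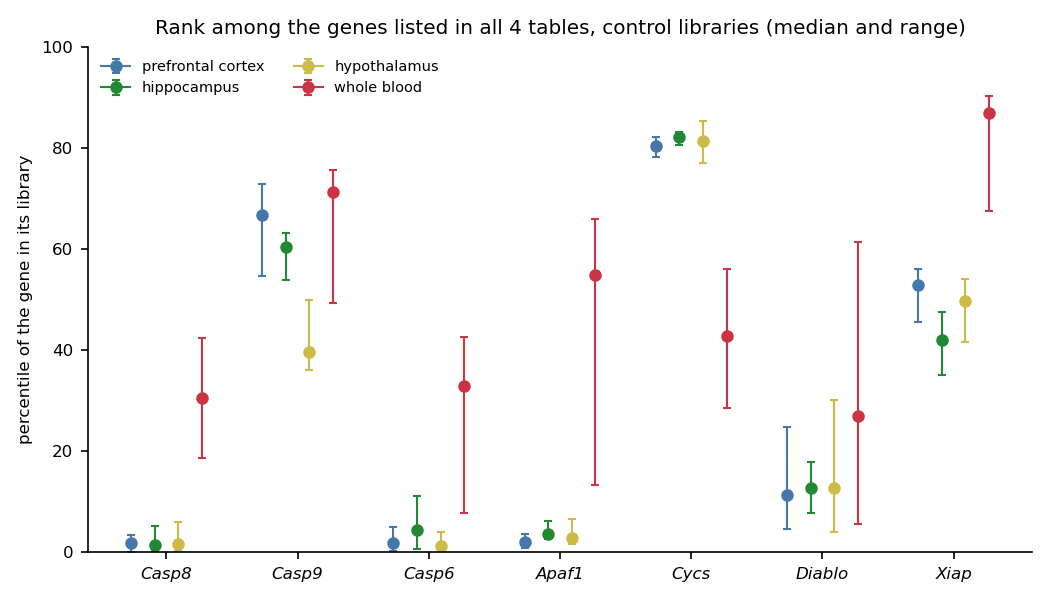
Percentile of each gene among the 7991 genes listed in all 4 tables (vertical axis), median and range over control libraries, by tissue. Cycs lies near 80.5 to 82.1 in the brain and 42.9 in blood, while Apaf1, Casp8, Casp6 and Xiap have higher medians in blood than in the brain regions.

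Partners in the pathway were compared across animals with the treatment means removed, in 15 relations: Apaf1 with Casp9, Xiap with Diablo, Cycs with Aifm1 and Casp8 with Casp6, in each tissue where both were listed. The relation of Cycs and Aifm1 in hypothalamus passed, with Pearson's r of 0.81 (n = 16, permutation p = 0.00135, adjusted 0.0202) and Spearman's rho of 0.82 (permutation p = 0.000530, adjusted 0.00795). Control replicate 5 was highest in both genes, with Cycs at 6.58 and Aifm1 at 3.98, and control replicates 2 and 8 were lowest in both, with Cycs at 6.06 and 5.90 and Aifm1 at 3.18 and 3.41. Without the 2 libraries farthest from the median of Cycs, r was 0.76. Among all 16154 other genes of the table, 23 had a higher r with Cycs and 10 had a higher r with Aifm1, 0.142% and 0.0619% of them.

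The same pair had r of 0.60 in hippocampus (permutation p = 0.0269, adjusted 0.107; rho 0.55, permutation p = 0.0406, adjusted 0.203; 0.36 without the 2 farthest libraries) and of 0.24 in prefrontal cortex (permutation p = 0.381, adjusted 0.903; rho 0.31, permutation p = 0.257, adjusted 0.771; 0.072 without them). The difference between regions in this relation was not tested. In hypothalamus the adjusted p of Pearson's r was 0.101 without control replicate 4 and 0.107 without control replicate 5, and it stayed at 0.0379 or less without any other single library. Without the 4 hemoglobin-rich libraries r was 0.80 (n = 12, permutation p = 0.0156, adjusted 0.0779). The oligodendrocyte marker list, 5 of 5 genes listed, had r of 0.63 with Cycs and 0.57 with Aifm1 in hypothalamus, with a list mean of 6.71 to 8.28 in controls and 6.69 to 7.97 in UCMS. With that mean removed, the r of Cycs and Aifm1 was 0.71. The astrocyte and endothelial lists left 0.75 and 0.73, the neuron list 0.80 and the hemoglobin list 0.80.

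**Figure D4:**
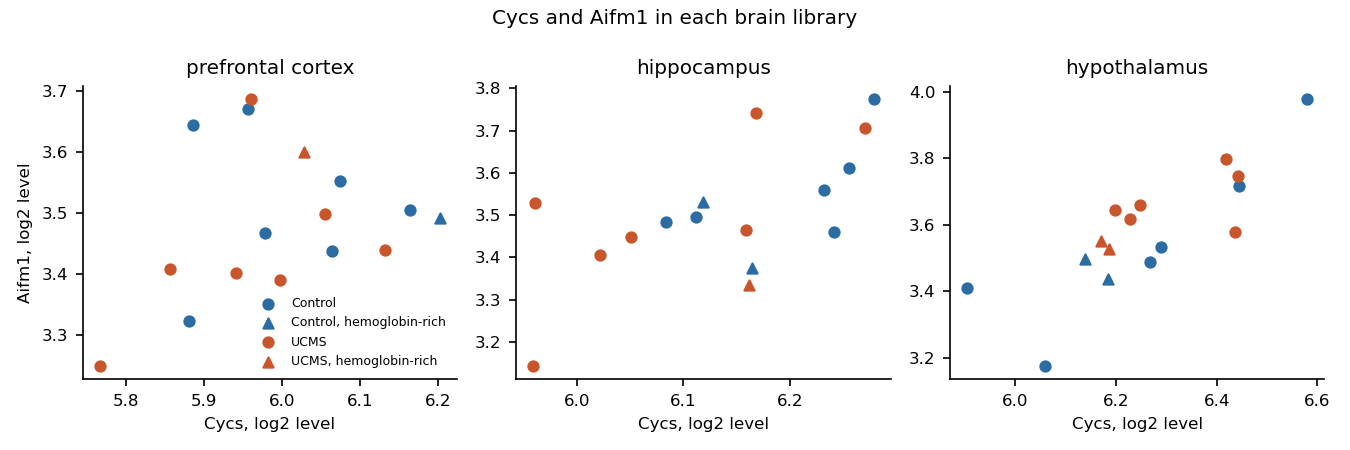
Log2 level of Aifm1 (vertical axis) against that of Cycs (horizontal axis) in each library of 3 brain regions, control in blue and UCMS in orange, triangles for hemoglobin-rich libraries. The points rise together in hypothalamus, where r was 0.81, and scatter in prefrontal cortex, where r was 0.24.

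The promoters of Cycs and Aifm1 are shown because the relation of this pair passed in hypothalamus. Whether a shared motif has a part in that relation was not tested. Both genes take part in respiration, and GCATGC is the core of the motif of NRF1, a transcription factor known for nuclear genes of mitochondrial proteins, while TGACGTCA is the motif of CREB. The sequences are from RefSeq on GRCm38.p6, 250 bases before to 50 after the start, read 5′ to 3′ on the strand of the gene, with GCATGC and TGACGTCA in capitals.
Cycs, chr6:50566520-50566819, minus strand: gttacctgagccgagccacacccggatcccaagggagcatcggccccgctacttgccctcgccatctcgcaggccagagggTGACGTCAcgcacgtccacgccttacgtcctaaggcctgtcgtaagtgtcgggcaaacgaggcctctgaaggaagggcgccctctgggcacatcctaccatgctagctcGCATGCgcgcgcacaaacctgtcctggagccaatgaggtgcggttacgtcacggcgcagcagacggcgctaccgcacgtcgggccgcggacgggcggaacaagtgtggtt
Aifm1, chrX:48513514-48513813, minus strand: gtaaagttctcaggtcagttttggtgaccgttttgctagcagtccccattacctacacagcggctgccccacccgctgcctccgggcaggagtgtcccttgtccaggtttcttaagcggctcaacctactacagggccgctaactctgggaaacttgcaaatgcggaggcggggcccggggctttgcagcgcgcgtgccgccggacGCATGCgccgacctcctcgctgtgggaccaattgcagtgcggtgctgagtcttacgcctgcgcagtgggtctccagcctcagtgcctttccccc

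Motifs were searched on both strands in all 32851 promoters of the same length. GCATGC was in 7.93% of them, and among the 8 genes in the promoters of Cycs, Aifm1 and Apaf1. TGACGTCA was in 1.79%, among them that of Cycs. The full palindromic NRF1 motif, which contains GCATGC, was in 0.971% and in none of the 8 genes. The ETS motif CCGGAAG was in 8.86% and in that of Diablo, and the SP motif GGGGCGG was in 23.2% and in those of Casp6, Casp9, Apaf1 and Xiap. These matches describe the letters of a window and are no measure of binding.

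None of the other relations passed. Apaf1 and Casp9, partners in the apoptosome, had r of 0.56 in blood (n = 16, permutation p = 0.0154, adjusted 0.107; rho 0.49, permutation p = 0.0624, adjusted 0.234). It was 0.25 without the 2 libraries farthest from the median of Apaf1, a step that narrows the range and can lower r by itself. Control replicate 2 was the lowest blood library in both genes, at 2.483 in Apaf1 and 3.447 in Casp9. The platelet list had r of -0.51 with Apaf1 and -0.53 with Casp9 in blood. With Apaf1 the red cell, monocyte, neutrophil and lymphocyte lists had 0.22, 0.11, -0.046 and -0.090. The part of these cell types in the relation was not tested. In the 3 brain regions the r of Apaf1 and Casp9 lay between -0.22 and 0.052. Xiap and its antagonist Diablo had r of 0.57 in hypothalamus (n = 16, permutation p = 0.0285, adjusted 0.107; rho 0.60, permutation p = 0.0206, adjusted 0.154) and of 0.19 without the hemoglobin-rich libraries. Casp8 and Casp6 had r between -0.065 and 0.23 in the 4 tissues.

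For each member, the genes whose levels followed it most closely were listed over the 48 brain libraries, with tissue and treatment means removed. The 48 libraries come from 16 animals and share their tables, so these values are descriptions. Xiap was followed by Sec62, Gm5564 and Psmc6 with r of 0.89, 0.87 and 0.86, where the 99th percentile of all genes was already 0.79. Cycs was followed by Cox7c, a subunit of cytochrome c oxidase, with 0.77, by Pms1 with 0.71, and by its own pseudogene Gm13772 with 0.70, against a 99th percentile of 0.50. Aifm1 was followed by Ndufb9, a subunit of respiratory complex I, with 0.69, by Cox7a2 with 0.67 and by Gm12338 with 0.67, against 0.52. Diablo was followed by Cox6b1 with 0.61 and by Pik3c2b and Nln with 0.58 each, against 0.46.

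The caspases and Apaf1 had other neighbours. Casp9 was followed by Ttbk1, Wsb2 and Git1 with 0.82, 0.80 and 0.79 (99th percentile 0.64). Apaf1 was followed by Tnik, Wdr35 and Ap2a2 with 0.61, 0.60 and 0.59 (0.43). Casp8 was followed by Zfp780b, by the immediate early gene Fos and by Arl5a with 0.53, 0.52 and 0.52 (0.36), and Casp6 by Pou2f2, Kctd1 and Susd1 with 0.56, 0.55 and 0.54 (0.35). For Pou2f2 and Kctd1 the value fell to 0.31 and 0.37 without the hemoglobin-rich libraries.

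The rest of the pathway was counted by list. None of the tested genes of 4 lists (the death receptor pathway, other inhibitors of apoptosis, mitochondrial release factors and caspase substrates) had an unadjusted limma p under 0.05 in any tissue. Casp2, an initiator caspase, was 3.59 ± 0.12 and 3.46 ± 0.10 in hypothalamus, a difference of -0.13 (SE 0.067) with an unadjusted p of 0.0640 and an adjusted p of 1.0. Its differences elsewhere were 0.18 in blood, -0.11 in prefrontal cortex and 0.0043 in hippocampus (unadjusted p of 0.306, 0.228 and 0.962, limma).

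Of the 14 death receptor genes, 8 were tested in each brain region and 7 in blood. In the order prefrontal cortex, hippocampus, hypothalamus, blood they had 7, 5, 3 and 4 genes higher in UCMS and medians of 0.054, 0.015, -0.061 and 0.055. Fadd, the adaptor that recruits caspase-8, was 4.34 ± 0.21 and 4.50 ± 0.22 in prefrontal cortex (unadjusted p = 0.141, limma). Ripk1, a kinase at the branch between survival and death, was 4.20 ± 0.19 and 4.38 ± 0.21 in hypothalamus (unadjusted p = 0.0692, limma). Of the inhibitors of apoptosis, 2, 2, 2 and 4 were tested, with 0, 1, 1 and 2 higher and medians of -0.10, -0.039, -0.00056 and -0.045. The differences of Birc2 were -0.15, -0.15 and -0.083 in the 3 brain regions (unadjusted p of 0.226, 0.269 and 0.354, limma). Those of Birc6, the other inhibitor tested there, were -0.058, 0.072 and 0.082 (unadjusted p of 0.544, 0.25 and 0.190, limma). Birc5, known for its role in dividing cells, was 2.97 ± 0.20 and 3.30 ± 0.53 in blood (unadjusted p = 0.118, limma).

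Of the mitochondrial release factors, 7, 7, 7 and 3 were tested, with 5, 2, 4 and 1 higher and medians of 0.030, -0.019, 0.022 and -0.11. Htra2, a protease that also relieves inhibitors of apoptosis, was 3.97 ± 0.098 and 4.10 ± 0.19 in prefrontal cortex and 4.27 ± 0.068 and 4.18 ± 0.12 in hypothalamus (unadjusted p of 0.116 and 0.132, limma). Of the caspase substrates, 10, 9, 10 and 5 were tested, with 4, 7, 5 and 4 higher and medians of -0.011, 0.054, -0.014 and 0.17. Parp1, a DNA repair enzyme cleaved in apoptosis, had differences of 0.10, 0.10, -0.042 and 0.17 in the same order of tissues (unadjusted p of 0.131, 0.119, 0.556 and 0.558, limma).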

How the data were processed

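The members, the pathway and marker lists and the tests were chosen with earlier results of these data known. For every tissue the authors deposited a single table of normalized values by Entrez number and symbol. The deposited values were read as log2 levels that had been quantile normalized between libraries. Scale and normalization were both inferred from the numbers themselves. Ribosomal RNA was depleted and stranded libraries were prepared with 100 ng of RNA each, per the labels' protocols. The only build named is GRCm38.p4, in the submitters' processing notes. Aligner, counting tool, strand setting and filters: not given in the sources used here. Counting error cannot be separated from the spread between animals, since read depth is unknown.

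The labels' treatments within a tissue made the groups, with a separate animal behind each library. The two-sided test was limma 3.58.1 (R 4.3.3, trended prior variance), without the 10% of genes with the lowest mean, with Benjamini-Hochberg adjustment over all genes tested. The mean over the brain regions used 16 animals, and differences of effect between tissues used levels subtracted within animals, for 6 pairs of tissues. Relations used 100000 permutations within treatment, two-sided (SciPy 1.17.1), with adjustment over the 15 relations. An exact permutation test of every gene, and differences without the library of lowest correlation in each tissue, were added after the data were seen. Positions and overlaps come from GENCODE on GRCm38, and copies from BLAST+ 2.17.0. All 8 members are named, with up to 2 genes of a pathway list with the smallest p in a tissue and the 3 genes most like each member. On simulated data with 200 changed genes, the limma test recovered 62%, 77%, 73% and 14% of changes of 0.5 on the log2 scale in prefrontal cortex (14127 genes), hippocampus (14015), hypothalamus (14539) and blood (7947), and 87%, 92%, 84% and 64% of changes of 1.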

Additional observations from a re-analysis of the deposited data

Results flagged for a closer look

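In 8 of 62 groups of libraries a single library lay far from the others by Dixon's criterion, which about 1 of 20 independent groups would meet. The groups here share libraries, and the rate over all genes was not counted, so the number is a description. Each next value below is from the same tissue and treatment. Xiap was lowest in prefrontal cortex UCMS replicate 5 at a log2 level of 3.896 (next 4.626), in hippocampus UCMS replicate 3 at 3.795 (next 4.412) and in blood control replicate 2 at 3.966 (next 4.99), each the library with the lowest median correlation in its table. Apaf1 was highest among prefrontal cortex controls in replicate 6 at 3.161 (next 2.969). It was lowest in hippocampus UCMS replicate 6 at 2.76 (next 3.166) and highest among UCMS blood libraries in replicate 7 at 3.684 (next 3.268). Casp6 was lowest in prefrontal cortex UCMS replicate 6 at 1.181 (next 2.747), from the same hemoglobin-rich animal, S7, as the hippocampus library. Cycs was lowest in blood UCMS replicate 6 at 2.471 (next 3.314), also from animal S7.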

How the results depend on the processing

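No member passed an adjusted p of 0.05 under any alternative run. Relations between members passing an adjusted p of 0.05 went from 1 to 0 without the hemoglobin-rich libraries. Leaving out 1 library at a time gave 0 to 1 genes at an adjusted p of 0.05 in blood, the 1 without UCMS replicate 2.

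Differences near 0 changed sign. With array weights they were -0.036 for Casp9 in prefrontal cortex, -0.0025 for Casp9 and -0.010 for Diablo in hippocampus, and -0.055 for Xiap and -0.072 for Cycs in blood. Without the hemoglobin-rich libraries they were 0.051 for Diablo in prefrontal cortex and 0.037 for Apaf1 and -0.0041 for Casp9 in hippocampus. Without animals S3 and S5, chosen after seeing the data, the mean over the brain regions was -0.042 for Casp9, 0.011 for Aifm1 and -0.025 for Diablo. Diablo in blood was -0.070 without the animals numbered BS.

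Leaving out 1 library at a time gave ranges with a change of sign for Diablo of -0.064 to 0.055 in prefrontal cortex, -0.0046 to 0.076 in hippocampus, -0.027 to 0.11 in hypothalamus, -0.15 to 0.15 in blood and -0.0032 to 0.062 over the brain regions. For Casp9 they were -0.0039 to 0.049 in hippocampus and -0.023 to 0.020 over the brain regions. Under the filter, Casp8 and Casp6 in prefrontal cortex ran from -0.33 to 0.084 and from -0.11 to 0.20. Apaf1 in hippocampus ran from -0.050 to 0.051, Xiap from -0.12 to 0 in hippocampus and from -0.13 to 0.12 in blood, and Aifm1 over the brain regions from -0.023 to 0.018. The causes were not tested.

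Replicate numbers mark different animals in the treatments, so they do not pair animals. Deviations of same-numbered libraries correlated between -0.13 and 0.55 in prefrontal cortex and between -0.37 and 0.51 in hippocampus. In hypothalamus they lay between -0.45 and 0.30 and in blood between -0.26 and 0.25. In that order of tissues, 6 of 8, 3 of 8, 3 of 8 and 2 of 7 pairs were over 0.1. Whether same-numbered libraries shared a batch was not tested. No library in hippocampus, hypothalamus or blood and 2 pairs in prefrontal cortex correlated best with their own number. With the replicate block, 0 genes passed an adjusted p of 0.05 in each tissue, and Diablo in blood was -0.070.

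At an unadjusted p of 0.05, genes in hippocampus went from 414 to 927 with array weights and to 688 without UCMS replicate 6. Those over the brain regions went from 489 to 923 without hemoglobin-rich animals, to 305 without S3 and S5, and to 304, 314 and 895 without UCMS replicates 3, 5 and 6. The unknown depth limits what could be detected. Casp8 and Casp6 in the 3 brain regions, and Apaf1 in prefrontal cortex and hypothalamus, lay under the filter and outside the main test.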

Other observations

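Diablo in hypothalamus separated the hemoglobin-rich libraries from the rest: the 4 ran from 3.405 through a median of 3.481 to 3.701, and the other 12 from 3.739 through 3.986 to 4.285, with no overlap. They are 2 control and 2 UCMS libraries. In hippocampus the 3 hemoglobin-rich libraries ran from 3.775 to 4.084 and the other 13 from 3.45 to 4.044. Casp8 in prefrontal cortex was highest in the 2 hemoglobin-rich libraries, at 3.257 and 3.298, with the other 14 between 0.737 and 3.114. For every other member and brain region the ranges overlapped. The share of all genes that set these libraries apart was not counted. The 4 in hypothalamus had the lowest median correlations of their table, from 0.896 to 0.927.

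Blood UCMS replicate 7, from animal S8, was at the edge of the UCMS group for 5 members. It was highest in Casp9 at 5.182, in Cycs at 3.991 and in Apaf1 at 3.684, and lowest in Casp6 at 1.868 and in Diablo at 1.874. Its median correlation with the other blood libraries was 0.869, against a median over libraries of 0.909.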
